A study of Rattus norvegicus with 30 samples.

Results

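Glycolysis breaks glucose down to pyruvate and lactate, and for several of its steps the testis can use either a widely expressed isozyme or one made in germ cells. Transcript levels of 9 such isozymes and of 1 glucose transporter, 10 of the 17322 genes measured, were followed in rat testes during the first wave of spermatogenesis and in cultured testicular explants. The members were chosen by name and found in the expression table through their Entrez Gene identifiers. The somatic isozymes were Gapdh, Pgk1, Pgam1, Ldha and Ldhb, and the germ-cell isozymes were Gapdhs, Pgk2 and Ldhc. Pgam2, an isozyme of muscle and of male germ cells, was set with the germ-cell isozymes. Slc2a3, which encodes a high-affinity glucose transporter of the plasma membrane, was set apart.

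The animals were Wistar Han rats, and the study set out to learn why meiosis stops in cultured prepubertal testis tissue. Untreated testes were taken at 8.5 and 14.5 days postpartum (dpp), at 24.5 and 30.5 dpp and at 36.5 and 53.5 dpp, with 3 testes from different rats per age except at 14.5 dpp. Explants cut from 8.5 dpp testes were kept to day 6, 16, 22 or 28 of culture (D6, D16, D22 and D28) on agarose between gas and liquid, in medium with a serum replacement, retinol and vitamin E, with 3 libraries per time. Each cultured library pooled explants of several males after the necrotic centre had been removed, so the cultured samples are pools and hold the outer tissue, whereas each testis is 1 animal. In age, D6 corresponds to 14.5 dpp, D16 to 24.5 dpp, D22 to 30.5 dpp and D28 to 36.5 dpp.

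Glucose enters the cell through facilitative transporters, and the payoff phase of glycolysis runs through glyceraldehyde-3-phosphate dehydrogenase, phosphoglycerate kinase and phosphoglycerate mutase before pyruvate is formed and reduced to lactate by lactate dehydrogenase. In the seminiferous epithelium, Sertoli cells take up glucose and release lactate, on which spermatocytes and spermatids depend. Genes on the X chromosome are silenced in spermatocytes from the pachytene stage on, and several X-linked metabolic genes, Pgk1 among them, have an autosomal copy that is expressed in male germ cells.

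Expression was given in fragments per kilobase of transcript scaled to the mapped reads of each library (FPKM), a level per length that can be set side by side between genes. A total of 29 libraries were used, 17 from testes and 12 from cultured tissue. A further 14.5 dpp library, labelled as an outlier, lists 0 for all genes and was left out, so every comparison with 14.5 dpp rests on 2 testes. Read counts were not used here, so sequencing depth is not known. Steps between the smallest values put the depth of the libraries at 0.892 to 1.7 times that of the first 8.5 dpp testis. Genes with values above 0 numbered 12520 to 13563 per library (median 12997). Replicates of a group correlated at a Pearson r of 0.965 to 0.985 over 12762 expressed genes, which do not count as independent replicates.

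Group comparisons were made on log2(FPKM + 1) with limma, over all genes whose median reached 0.5 FPKM in 1 or more of the groups fitted. A gene was called higher or lower where its adjusted p was 0.05 or less and its group medians differed 2-fold or more. Fold changes are given on this log2 scale unless a ratio of mean FPKM is named, and the added 1 makes them understate the change of genes with low values. A value of exactly 0 in such a table can be a failed estimate. Of all genes, 1973 were listed at 0 in all 29 libraries, among them Tpi1, an enzyme that every glycolytic cell uses, so a gene at 0 is described here only as listed at 0. Processed copies of housekeeping genes can take reads from their parent gene. By name alone, the rat gene table holds 91 copies of Gapdh, 32 of Ldha, 13 of Pgam1, 9 of Pgk1 and 1 of Ldhb. Such a name match does not show that an entry is a processed copy. None was found for the germ-cell isozymes or Slc2a3, so the levels of the somatic isozymes, Gapdh first, are less certain.

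The isozyme genes lie apart in the genome except for Ldha and Ldhc, which are neighbours on chromosome 1 with 1 gene model between them. Pgk1 is on the X chromosome and Pgk2 on chromosome 9, Gapdh is on chromosome 4 and Gapdhs on chromosome 1, and Pgam1 is on chromosome 1 and Pgam2 on chromosome 14. Promoter sequences of 8 of the 10 members, the 250 bases before the annotated start site, were found in RefSeq for the rat assembly GRCr8. Pgk1 and Slc2a3 had no entry in that table. The neighbours Ldha and Ldhc are printed because their levels parted with age and in culture, and Pgk2 and Gapdhs because they are germ-cell genes whose levels first rose at different ages. Ldha is at chr1:106507842-106508091 on the plus strand, Ldhc at chr1:106522745-106522994 on the plus strand, Pgk2 at chr9:27976663-27976912 on the plus strand and Gapdhs at chr1:95121056-95121305 on the minus strand, each read 5′ to 3′ toward the gene.
Ldha: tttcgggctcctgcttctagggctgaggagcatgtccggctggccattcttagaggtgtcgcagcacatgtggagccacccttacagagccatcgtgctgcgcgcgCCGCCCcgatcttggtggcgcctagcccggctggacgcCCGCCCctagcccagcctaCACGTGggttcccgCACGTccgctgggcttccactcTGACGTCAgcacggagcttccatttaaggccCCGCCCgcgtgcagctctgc
Ldhc: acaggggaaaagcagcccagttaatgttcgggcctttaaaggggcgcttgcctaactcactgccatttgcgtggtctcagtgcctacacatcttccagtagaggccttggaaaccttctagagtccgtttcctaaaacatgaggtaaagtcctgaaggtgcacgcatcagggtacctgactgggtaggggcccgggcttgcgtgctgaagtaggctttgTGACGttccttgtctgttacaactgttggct
Pgk2: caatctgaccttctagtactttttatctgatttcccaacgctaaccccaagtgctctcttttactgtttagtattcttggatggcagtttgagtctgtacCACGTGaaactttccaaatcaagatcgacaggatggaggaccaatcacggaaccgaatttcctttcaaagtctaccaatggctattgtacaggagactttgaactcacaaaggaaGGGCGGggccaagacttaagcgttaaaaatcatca
Gapdhs: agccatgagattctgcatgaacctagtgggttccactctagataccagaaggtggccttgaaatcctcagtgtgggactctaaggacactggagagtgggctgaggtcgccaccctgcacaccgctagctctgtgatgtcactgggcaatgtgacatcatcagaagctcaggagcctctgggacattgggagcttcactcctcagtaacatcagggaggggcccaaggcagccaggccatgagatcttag
Capitals mark matches, on either strand, to 3 short motifs chosen after the expression values were seen. These were ACGTG (the core of hypoxia response elements), TGACG (part of the cyclic AMP response element) and GGGCGG (the GC box). On the other strand the first of these reads as CACGT, the second as CGTCA and the last as CCGCCC. The first, ACGTG, matched 3 times in Ldha and 2 times in Pgk2, where both strands match within CACGTG. The second, TGACG, matched 2 times in Ldha, within TGACGTCA, and 1 time in Ldhc. GGGCGG matched 3 times in Ldha and 1 time in Pgk2, and Gapdhs held none of the 3 motifs. Matches to different motifs did not overlap. Of 33469 rat promoters of the same length, 16.6% held ACGTG, 18.2% held TGACG and 30.5% held GGGCGG, compared with 4, 3 and 3 of the 8 members. The GC content was 66.4% for Ldha, 52.4% for Ldhc, 42.4% for Pgk2 and 54.8% for Gapdhs. A match is a description of the letters, not a binding site or a cause of expression.

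Slc2a3 was listed at 0 in all 29 libraries and was not tested. The other 9 members had values above 0 and all of them passed the filter in the comparisons between testes of successive ages. The number that passed was 8 in the fits with D6 or D16, 9 in those with D22 or D28 and their testes, and 6 where only D6, D28 or 8.5 dpp libraries entered, because Ldhc, Pgk2 and Gapdhs were near 0 there.

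Glyceraldehyde-3-phosphate dehydrogenase makes the first high-energy intermediate of the payoff phase. Its somatic gene, Gapdh, gave 30.1, 80.9 and 54 FPKM at 8.5 dpp, 17.6 and 19.6 FPKM at 14.5 dpp and 15.1, 10.2 and 25.6 FPKM at 24.5 dpp. Older testes gave 5.95, 0 and 6.64 FPKM at 30.5 dpp, 4.36, 4.02 and 2.77 FPKM at 36.5 dpp and 5.56, 2.82 and 4.58 FPKM at 53.5 dpp. Cultured tissues gave 71.7, 35.7 and 44.5 FPKM at D6, 46.9, 80.5 and 70.8 FPKM at D16, 96, 98.4 and 62.6 FPKM at D22 and 111, 91.6 and 34.2 FPKM at D28. All 12 cultured libraries thus lay above every testis of 14.5 dpp or older and overlapped with the testes of 8.5 dpp, the age at which the explants were cut. Gapdh fell between 24.5 and 30.5 dpp, with a log2 fold change of -2.17 (SE 0.61, adjusted p = 0.00574). This value rested in part on the second 30.5 dpp testis, listed at 0, without which it was -1.21. In D28 tissues Gapdh was higher than in 36.5 dpp testes by 3.94 (SE 0.41, adjusted p = 5.87e-05), a ratio of 21.2 in mean FPKM. At 36.5 dpp Gapdh-ps1, a copy by name, had a mean of 4.24 FPKM, above the 3.71 FPKM of Gapdh. In D28 tissues the mean of Gapdh-ps1 was 0.0359 FPKM. The ratio would be smaller if reads of that copy belong to Gapdh.

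The germ-cell form Gapdhs encodes the enzyme that is bound to the fibrous sheath of the sperm tail. It was listed at 0.573, 0.492 and 0.156 FPKM at 8.5 dpp, 0.846 and 0.927 FPKM at 14.5 dpp and 0.302, 1.23 and 0.239 FPKM at 24.5 dpp. Values then were 14.1, 47.4 and 31.4 FPKM at 30.5 dpp, 121, 188 and 86.5 FPKM at 36.5 dpp and 340, 363 and 385 FPKM at 53.5 dpp. In culture Gapdhs was listed at 0 in 6 of 12 libraries, at 0.388 FPKM in 1 D6 library, at 0.338 and 0.205 FPKM in 2 D16 libraries and at 0.607, 0.398 and 0.41 FPKM at D28. The 24.5 dpp testes overlapped with those of 8.5 and 14.5 dpp and with the cultured tissues, and from 30.5 dpp on each age lay above the one before it with no overlap. Gapdhs rose between 24.5 and 30.5 dpp by 4.23 on the log2 scale (SE 0.36, adjusted p = 3.27e-07), between 30.5 and 36.5 dpp by 2.14 (SE 0.36, adjusted p = 0.000818) and between 36.5 and 53.5 dpp by 1.52 (SE 0.36, adjusted p = 0.00584). It was the only member called higher in the last 2 of these steps. In D28 tissues Gapdhs was lower than at 36.5 dpp, with a log2 fold change of -6.43 (SE 0.26, adjusted p = 4.22e-07). At D22, where all 3 libraries were listed at 0, it was called lower than at 30.5 dpp (adjusted p = 1.76e-05).

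In bulk tissue, fewer cells of a type and less RNA per cell cannot be told apart, which holds for every level given here. To set the isozymes of a step side by side, the FPKM of the germ-cell form was divided by the sum of both forms. For glyceraldehyde-3-phosphate dehydrogenase this germ-cell share was 0.921% ± 0.837 at 8.5 dpp (SD, n = 3), 4.55% ± 0.0594 at 14.5 dpp (SD, n = 2) and 1.96%, 10.8% and 0.925% in the 24.5 dpp testes. It was 70.3%, 100% and 82.6% in the 30.5 dpp testes, where the 100% came from the library with Gapdh listed at 0. The share then was 97.1% ± 0.71 at 36.5 dpp and 98.8% ± 0.42 at 53.5 dpp (SD, n = 3). At D28 it was 0.544%, 0.432% and 1.18%. The summed level of the step was 55.4 FPKM at 8.5 dpp, 17.6 FPKM at 24.5 dpp and 367 FPKM at 53.5 dpp, and it was 79.4 FPKM at D28. A step that stood low around 24.5 dpp was therefore carried almost wholly by Gapdhs transcripts in the oldest testes and by Gapdh transcripts in culture.

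Phosphoglycerate kinase yields the first ATP of the payoff phase. Its X-linked somatic gene, Pgk1, was at 55.3, 41.1 and 47 FPKM at 8.5 dpp, 19.2 and 18 FPKM at 14.5 dpp and 10.8, 8.36 and 5.54 FPKM at 24.5 dpp. It was at 5.65, 4.53 and 8.75 FPKM at 30.5 dpp, 4.18, 3.6 and 4.43 FPKM at 36.5 dpp and 3.11, 3.25 and 4.29 FPKM at 53.5 dpp. In culture Pgk1 was at 58.7, 69.6 and 64.4 FPKM at D6, 47.5, 31.5 and 34.4 FPKM at D16, 48.5, 67.1 and 63 FPKM at D22 and 46.5, 47.2 and 37.3 FPKM at D28. Testes of 8.5, 14.5 and 24.5 dpp did not overlap, the later ages were all under 10 FPKM, and every cultured library lay above every testis of 14.5 dpp or older. Pgk1 fell between 8.5 and 14.5 dpp by 1.31 on the log2 scale (SE 0.24, adjusted p = 0.000845), and between 14.5 and 24.5 dpp it fell by 1.12 (SE 0.24, adjusted p = 0.00116). The second of these calls was lost without the third 24.5 dpp testis, where the log2 fold change was -0.89. The mean at 8.5 dpp was 13.5 times that at 53.5 dpp. Against testes of the same age Pgk1 was higher by 1.73 at D6 (SE 0.13, adjusted p = 0.00137), by 2.09 at D16 (SE 0.25, adjusted p = 0.000311), by 3.08 at D22 (SE 0.23, adjusted p = 1.24e-05) and by 3.14 at D28 (SE 0.13, adjusted p = 4.71e-07). In mean FPKM these were ratios of 3.46, 4.59, 9.43 and 10.7.

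The autosomal copy, Pgk2, supplies the enzyme to spermatocytes, spermatids and sperm. It was at 0.31, 0.156 and 0.0675 FPKM at 8.5 dpp and at 0.449 and 0.744 FPKM at 14.5 dpp. It then stood at 48.1, 57.7 and 31.5 FPKM at 24.5 dpp, 254, 367 and 310 FPKM at 30.5 dpp, 522, 535 and 553 FPKM at 36.5 dpp and 992, 975 and 1073 FPKM at 53.5 dpp. From D16 to D28 the 9 cultured libraries ranged from 0.0252 to 0.449 FPKM with a median of 0.202 FPKM, and the D6 libraries were at 0.0498, 0.264 and 0.286 FPKM. From 14.5 dpp on, each age lay above the one before it with no overlap, and cultured tissue of every time overlapped with the 8.5 dpp testes. Pgk2 rose between 14.5 and 24.5 dpp by 4.84 on the log2 scale (SE 0.20, adjusted p = 2.25e-10), a ratio of 76.7 in mean FPKM. Between 24.5 and 30.5 dpp it rose by 2.76 (SE 0.18, adjusted p = 2.42e-08), a ratio of 6.79. The later steps passed the adjusted p threshold but not the ratio of medians, with log2 fold changes of 0.80 to 36.5 dpp and 0.91 to 53.5 dpp. In culture Pgk2 was lower than in testes of the same age, with log2 fold changes of -5.39 at D16 (SE 0.22, adjusted p = 6.19e-06), -7.92 at D22 (SE 0.15, adjusted p = 3.8e-08) and -8.73 at D28 (SE 0.14, adjusted p = 7.24e-09). At D6 it was not called.

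The germ-cell share of phosphoglycerate kinase changed sides between 14.5 and 24.5 dpp. It was 0.36% ± 0.207 at 8.5 dpp (SD, n = 3), 3.13% ± 1.19 at 14.5 dpp (SD, n = 2), 84.7% ± 2.89 at 24.5 dpp (SD, n = 3) and 98% ± 0.769 at 30.5 dpp (SD, n = 3), and reached 99.7% ± 0.0446 at 53.5 dpp (SD, n = 3). Over the 12 cultured libraries it ranged from 0.0734% to 0.955%. The summed level of the step was 48 FPKM at 8.5 dpp, 19.2 FPKM at 14.5 dpp and 1017 FPKM at 53.5 dpp, whereas the means of the cultured groups lay between 37.9 and 64.4 FPKM.

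**Figure D1:**
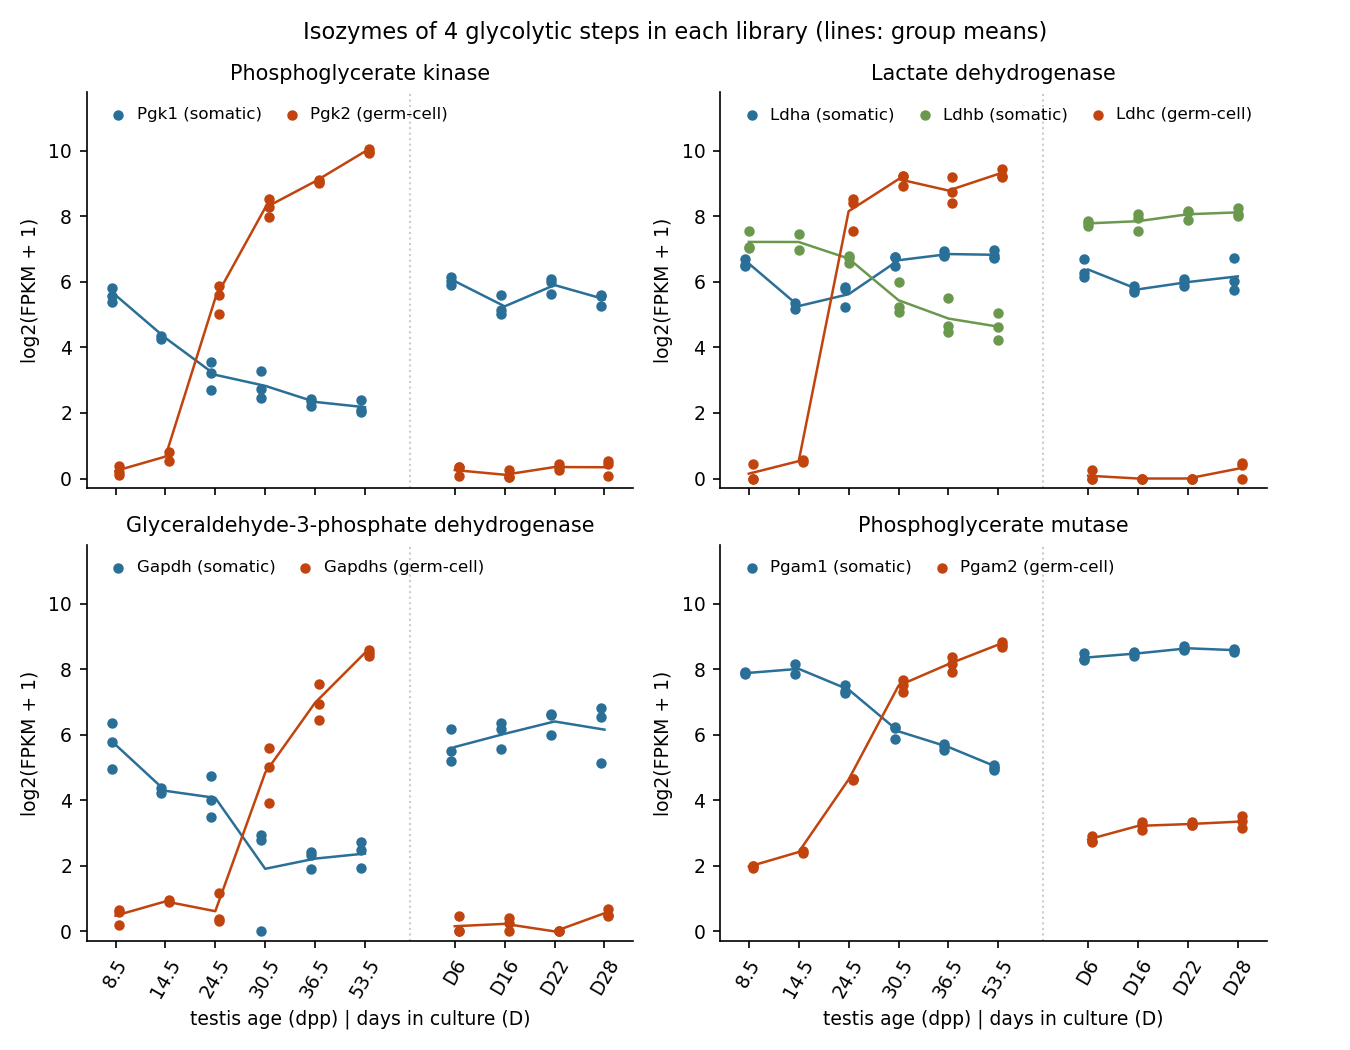
Level of each isozyme, as log2(FPKM + 1), in each of the 29 libraries, with 1 panel per glycolytic step, ages and culture times on the horizontal axis and lines at group means. Germ-cell isozymes are higher in every testis of 30.5 dpp or older than in any cultured library, as with Pgk2 at 992, 975 and 1073 FPKM at 53.5 dpp and at most 0.449 FPKM from D16 to D28.

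Phosphoglycerate mutase moves the phosphate group before enolase acts. Its widely expressed gene, Pgam1, was at 242, 232 and 236 FPKM at 8.5 dpp, 233 and 285 FPKM at 14.5 dpp, 161, 154 and 184 FPKM at 24.5 dpp and 73.3, 58 and 73.8 FPKM at 30.5 dpp. It was at 49.5, 51.2 and 45 FPKM at 36.5 dpp and at 31, 32.7 and 29.4 FPKM at 53.5 dpp. In culture it was at 358, 313 and 317 FPKM at D6, and from D16 to D28 the 9 libraries ranged from 342 to 423 FPKM with a median of 383 FPKM. Every cultured library lay above every testis, and from 24.5 dpp on each age lay below the one before it with no overlap. Pgam1 fell between 24.5 and 30.5 dpp by 1.28 on the log2 scale (SE 0.11, adjusted p = 4.26e-07). The differences from 14.5 to 24.5 dpp (-0.63), from 30.5 to 36.5 dpp (-0.48) and from 36.5 to 53.5 dpp (-0.63) passed the adjusted p threshold but not the ratio of medians. In culture Pgam1 was higher than at the same age by 1.11 at D16 (SE 0.10, adjusted p = 0.000100), by 2.54 at D22 (SE 0.12, adjusted p = 1.83e-06) and by 2.95 at D28 (SE 0.10, adjusted p = 1.68e-07). The mean at D28 was 7.87 times that at 36.5 dpp.

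Pgam2, the muscle and germ-cell isozyme, was at 2.86, 2.97 and 2.98 FPKM at 8.5 dpp, 4.28 and 4.45 FPKM at 14.5 dpp and 24.1, 23.7 and 23.9 FPKM at 24.5 dpp. It was at 159, 202 and 182 FPKM at 30.5 dpp, 243, 334 and 285 FPKM at 36.5 dpp and 457, 429 and 408 FPKM at 53.5 dpp. In culture it was at 5.75, 5.68 and 6.57 FPKM at D6, 7.46, 8.49 and 9.09 FPKM at D16, 9.18, 8.43 and 8.46 FPKM at D22 and 7.83, 10.6 and 9.33 FPKM at D28. Each age lay above the one before it with no overlap, and the cultured libraries lay between the testes of 14.5 and 24.5 dpp. Unlike the 3 other germ-cell isozymes, Pgam2 was thus higher in all 12 cultured libraries than in the 8.5 dpp testes of the age at which culture began. Pgam2 rose between 14.5 and 24.5 dpp by 2.22 on the log2 scale (SE 0.12, adjusted p = 3.29e-09) and between 24.5 and 30.5 dpp by 2.86 (SE 0.11, adjusted p = 1.15e-10). Between 30.5 and 36.5 dpp (0.66) and between 36.5 and 53.5 dpp (0.60) it passed the adjusted p threshold but not the ratio of medians. Against the same age it was lower, with log2 fold changes of -1.42 at D16 (SE 0.10, adjusted p = 3.07e-05), -4.22 at D22 (SE 0.11, adjusted p = 1.75e-07) and -4.81 at D28 (SE 0.16, adjusted p = 1.44e-07). Markers of skeletal muscle, which also expresses Pgam2, summed to between 0.472 and 6.72 FPKM in the 29 libraries (5 of 5 found, Acta1 the most abundant, Tnni2 listed at 0 in every group), and their part in the level of Pgam2 was not tested.

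The germ-cell share of phosphoglycerate mutase moved later than that of the kinase. It was 1.23% ± 0.0531 at 8.5 dpp (SD, n = 3), 1.67% ± 0.192 at 14.5 dpp (SD, n = 2), 12.6% ± 1.01 at 24.5 dpp (SD, n = 3), 72.4% ± 4.75 at 30.5 dpp (SD, n = 3), 85.4% ± 2.01 at 36.5 dpp (SD, n = 3) and 93.3% ± 0.353 at 53.5 dpp (SD, n = 3). At D6, D16, D22 and D28 it was 1.8% ± 0.224, 2.27% ± 0.153, 2.14% ± 0.195 and 2.36% ± 0.375 (SD, n = 3 each). The summed level was 190 FPKM at 24.5 dpp and 462 FPKM at 53.5 dpp, and it was 335 FPKM at D6 and 408 FPKM at D22.

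Lactate dehydrogenase interconverts pyruvate and lactate. Ldha, the form that prevails in muscle and favours lactate production, was at 90.6, 88.6 and 102 FPKM at 8.5 dpp, 40.3 and 34.8 FPKM at 14.5 dpp and 57, 54.7 and 36.3 FPKM at 24.5 dpp. It was at 88.5, 107 and 107 FPKM at 30.5 dpp, 109, 113 and 122 FPKM at 36.5 dpp and 107, 106 and 126 FPKM at 53.5 dpp. In culture it was at 77.2, 69.4 and 104 FPKM at D6, 50.3, 53.4 and 57.8 FPKM at D16, 63.3, 67.5 and 58.2 FPKM at D22 and 106, 52.7 and 64.2 FPKM at D28. Ldha was lowest in the testes of 14.5 and 24.5 dpp, whose ranges overlapped, and was alone among the somatic isozymes in being as high in the oldest testes as at 8.5 dpp. It fell between 8.5 and 14.5 dpp (adjusted p = 5.62e-05), with a mean at 8.5 dpp 2.49 times that at 14.5 dpp. Between 24.5 and 30.5 dpp the log2 fold change was 1.04 (SE 0.15, adjusted p = 2.91e-05), and the ratio of medians stayed under 2. Ldha became called there without the first 24.5 dpp testis (1.16) or the second (1.13). In culture it was higher than at 14.5 dpp at D6 by 1.11 (SE 0.20, adjusted p = 0.0195), a call that was lost with quantile normalization (1.06), with the replicate block (0.95) and in 4 of the 5 fits that left out 1 library. In every D22 and D28 library Ldha was below every testis of the same age, with log2 fold changes of -0.67 (adjusted p = 0.00117) and -0.68 (adjusted p = 0.0302) that did not reach the ratio of medians.

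Ldhb, the form that prevails in heart, was at 133, 130 and 189 FPKM at 8.5 dpp, 177 and 124 FPKM at 14.5 dpp and 111, 106 and 95.6 FPKM at 24.5 dpp. It was at 62.8, 33.2 and 36.7 FPKM at 30.5 dpp, 24, 44.9 and 21.4 FPKM at 36.5 dpp and 17.6, 32.3 and 23.8 FPKM at 53.5 dpp. In culture it was at 231, 220 and 210 FPKM at D6, and from D16 to D28 the 9 libraries ranged from 186 to 308 FPKM with a median of 267 FPKM. From 30.5 dpp on, testes of successive ages overlapped, but every testis of 30.5 dpp lay above every testis of 53.5 dpp. All testes of 30.5 dpp and older lay below all younger testes. The cultured libraries lay above all testes except that the lowest of them, at D16, was below the highest 8.5 dpp testis. Ldhb fell between 24.5 and 30.5 dpp by 1.27 on the log2 scale (SE 0.30, adjusted p = 0.00161). Against the same age it was higher by 1.14 at D16 (SE 0.15, adjusted p = 0.000538), by 2.62 at D22 (SE 0.24, adjusted p = 3.48e-05) and by 3.24 at D28 (SE 0.26, adjusted p = 1.38e-05). In culture, as in the testes up to 24.5 dpp, Ldhb was above Ldha in every library, and in the older testes Ldha was above Ldhb in every library.

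Ldhc encodes the isozyme of spermatocytes, spermatids and sperm. It was listed at 0, 0.359 and 0 FPKM at 8.5 dpp and at 0.486 and 0.405 FPKM at 14.5 dpp. It stood at 336, 368 and 187 FPKM at 24.5 dpp, 603, 601 and 492 FPKM at 30.5 dpp, 595, 340 and 427 FPKM at 36.5 dpp and 584, 700 and 607 FPKM at 53.5 dpp. In culture it was listed at 0 in 9 of 12 libraries, at 0.194 FPKM in 1 D6 library and at 0.39 and 0.338 FPKM in 2 D28 libraries. All testes from 24.5 dpp on lay above all younger testes and all cultured tissues, and from 24.5 dpp on neighbouring groups in the order of means overlapped. Ldhc rose between 14.5 and 24.5 dpp by 7.63 on the log2 scale (SE 0.27, adjusted p = 5.17e-11), a ratio of 666 in mean FPKM. Between 24.5 and 30.5 dpp the log2 fold change was 0.98 (SE 0.24, adjusted p = 0.00214) and was not called, but it was called without the first 24.5 dpp testis (1.10) or the second (1.17). At D28 Ldhc was lower than at 36.5 dpp, with a log2 fold change of -8.49 (SE 0.23, adjusted p = 5.23e-08). It was also called lower at D16 (adjusted p = 3.7e-06) and D22 (adjusted p = 1.45e-08), where all cultured libraries were listed at 0.

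Over the 3 genes, the germ-cell share of lactate dehydrogenase was 0.239% ± 0.0217 at 14.5 dpp (SD, n = 2), 65% ± 5.72 at 24.5 dpp (SD, n = 3), 79.5% ± 1.89 at 30.5 dpp (SD, n = 3), 75% ± 6.68 at 36.5 dpp (SD, n = 3) and 82% ± 1.72 at 53.5 dpp (SD, n = 3). The highest value of a cultured library was 0.108%. Lactate dehydrogenase was the step at which the somatic forms kept the largest part in the oldest testes, and Ldha made most of that part. The rat file also lists Ldhal6b, a gene that was matched to Ldha by its name. It was at 152 ± 58.8 FPKM at 24.5 dpp and 434 ± 30.9 FPKM at 30.5 dpp (SD, n = 3), and at most 0.868 FPKM in the cultured libraries and in testes up to 14.5 dpp. With copies summed, so that Ldhal6b counted on the somatic side, the germ-cell share of lactate dehydrogenase was 48.8% at 24.5 dpp, 49.3% at 30.5 dpp, 44.2% at 36.5 dpp and 54.6% at 53.5 dpp. With Ldhal6b on the germ-cell side it was 88% at 53.5 dpp. Which form held the larger part from 24.5 to 36.5 dpp thus depended on the side given to Ldhal6b.

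**Figure D2:**
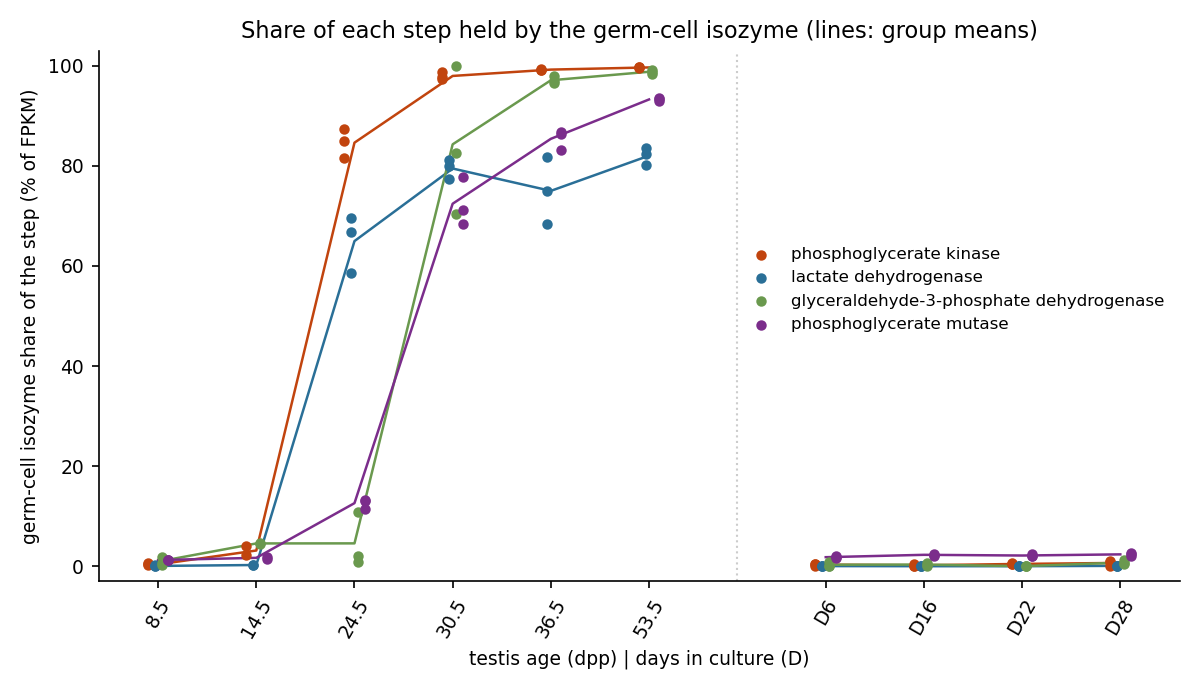
Germ-cell isozyme as a percentage of the summed FPKM of its step in each library, for 4 steps, with lines at group means. At 24.5 dpp phosphoglycerate kinase (84.7%) and lactate dehydrogenase (65%) stand above phosphoglycerate mutase (12.6%) and glyceraldehyde-3-phosphate dehydrogenase (0.925% to 10.8%). For lactate dehydrogenase the value is 48.8% with Ldhal6b counted as somatic and 73.5% with it as germ-cell. All 12 cultured libraries stay near the bottom.

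The plot of shares shows an order of the steps in the testis. At 24.5 dpp the lowest share of phosphoglycerate kinase was 81.6% and the lowest of lactate dehydrogenase 58.6%, above the highest of phosphoglycerate mutase (13.3%) and of glyceraldehyde-3-phosphate dehydrogenase (10.8%). At 30.5 dpp the lowest share of any testis at any of the 4 steps was 68.4%, for phosphoglycerate mutase. With Ldhal6b counted as somatic the mean share of lactate dehydrogenase was 49.3% at that age, below that of phosphoglycerate mutase. With it on the germ-cell side the share was 87.3%. The highest share of any cultured library was 2.66%, for phosphoglycerate mutase at D28.

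Cell-type markers were summed beside these results. Markers of pachytene spermatocytes (4 of 5 found, Hspa2 the most abundant) summed to 25.4 to 30.3 FPKM at 14.5 dpp, 929 to 1443 FPKM at 24.5 dpp and at most 2153 FPKM at 30.5 dpp, and to 16.4 to 24.8 FPKM in the cultured libraries. Markers of early spermatocytes (4 of 4, Sycp3 the most abundant) summed to 8.27 and 48.4 FPKM in the 14.5 dpp testes, which differed, to 533 to 555 FPKM at 24.5 dpp and to 4.84 to 25.9 FPKM in culture. Spermatid markers (6 of 6) summed to 14 to 14.9 FPKM at 24.5 dpp, 222 to 886 FPKM at 30.5 dpp, 3091 to 4597 FPKM at 36.5 dpp and 12589 to 18330 FPKM at 53.5 dpp, with Tnp1 the most abundant from 30.5 dpp. In culture they summed to 5.29 to 11.1 FPKM, and Prm1 was listed at 0 in every cultured group and in testes up to 24.5 dpp. Ldhc and Pgk2 were thus high from the age at which the spermatocyte markers were, and Gapdhs only from the age at which the spermatid markers were. The part of cell composition in these levels was not tested.

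Markers of other cells had their own courses. Sertoli cell markers (6 of 6, Aard the most abundant) summed to 1627 to 1795 FPKM at 14.5 dpp, then to 790 to 990 FPKM at 24.5 dpp and to 168 to 218 FPKM at 53.5 dpp, and lay at 1323 to 2047 FPKM in culture. Endothelial markers (4 of 4) summed to 42.7 to 45.9 FPKM at 8.5 dpp, 0.994 to 2.23 FPKM at 53.5 dpp and 46 to 82.3 FPKM in culture. Spermatogonial markers (4 of 5, Uchl1 the most abundant) summed to 126 to 131 FPKM at 8.5 dpp, 39.3 to 42.3 FPKM at 53.5 dpp and 170 to 250 FPKM in culture. Leydig cell markers (6 of 6) were lower in culture, at 12.7 to 36.8 FPKM, than in the testes, at 66.3 to 595 FPKM. The part of each cell type in the levels of the somatic isozymes was not tested.

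**Figure D3:**
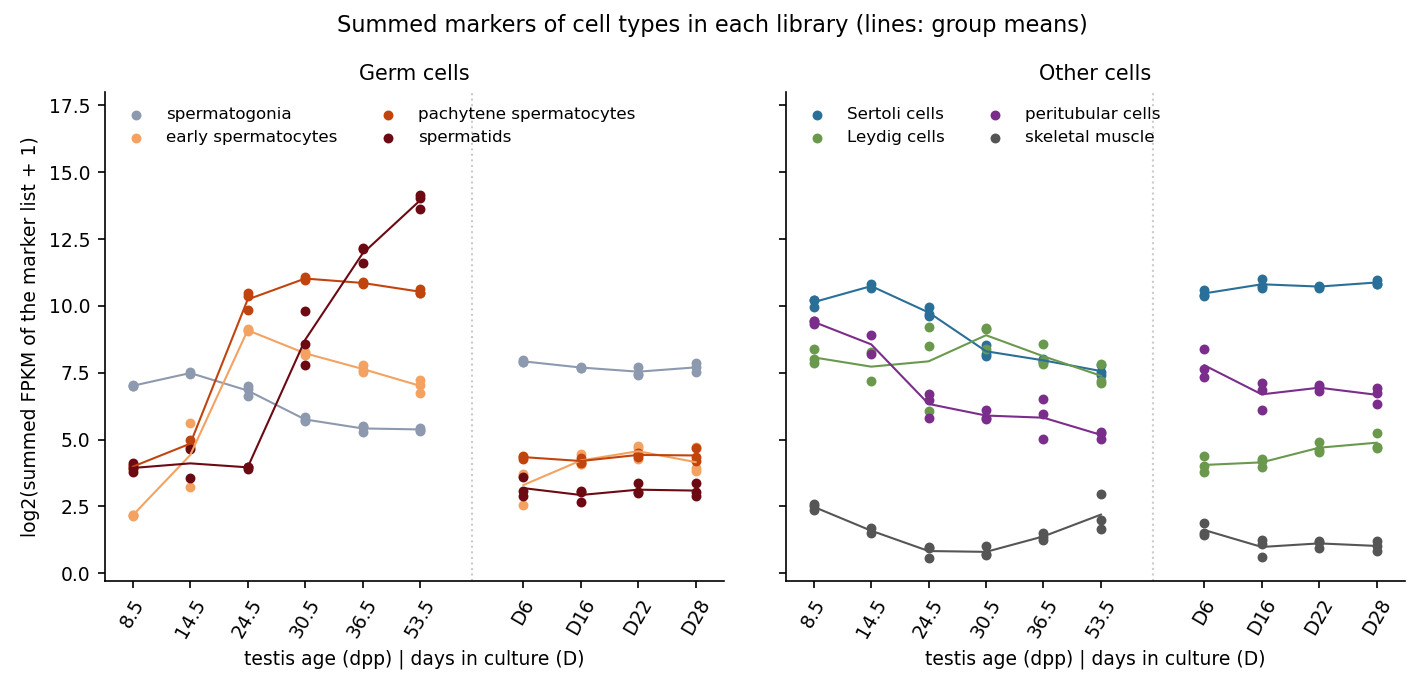
Summed FPKM of cell-type markers in each library, with lines at group means. Germ-cell panels show pachytene markers at 929 to 1443 FPKM at 24.5 dpp and spermatid markers at 12589 to 18330 FPKM at 53.5 dpp, against at most 24.8 and 11.1 FPKM in culture.

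The counts of members called were read against the share of all tested genes called in the same comparison and direction. Between 8.5 and 14.5 dpp, 0 of 9 members were higher and 2 (Ldha and Pgk1) lower by limma, against 8.37% and 6.32% of 12531 genes. At an unadjusted p under 0.05 the counts were 2 and 2, with 5850 of all genes. By adjusted p alone 3 members passed, among them Pgam2 (0.45), with 4833 of all genes. Between 14.5 and 24.5 dpp, 3 were higher and 1 lower, against 14.2% and 21.4%, and between 24.5 and 30.5 dpp 3 were higher and 3 lower, against 13.1% and 24.5%. The 3 members higher were germ-cell isozymes at both steps, Ldhc, Pgk2 and Pgam2 at the first and Pgk2, Gapdhs and Pgam2 at the second. These members were chosen as germ-cell genes, and Ldhc passed the filter only through the later ages, so no excess over the background is read from these counts. Between 30.5 and 36.5 dpp 1 member (Gapdhs) was higher and 0 lower, against 6.08% and 1.40%, and between 36.5 and 53.5 dpp again 1 (Gapdhs) was higher and 0 lower, against 2.62% and 3.93%. At an unadjusted p under 0.05 limma gave 3 higher and 2 lower at the first of these late steps and 3 higher and 1 lower at the second. Of all 12531 genes, 5695 and 6056 passed that threshold in either direction.

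Cultured tissue was compared with testes of the same age. At D6, 3 members were higher than at 14.5 dpp (Ldha, Pgk1 and Gapdh) and 1 lower (Gapdhs, -0.76, adjusted p = 0.0408) of 8 tested, against 5.57% and 2.37% of 11309 genes. Of these calls Pgk1 alone was kept whichever library was left out. Between 1 and 3 members were called as 1 library was left out, and Ldha was not called without the first (1.16) or the third (0.95) D6 library or the first (1.22) or second (1.01) 14.5 dpp testis. Gapdh, at 1.34, was not called without the third D6 library (1.40) or the first (1.26) or second (1.41) 14.5 dpp testis. Gapdhs was not called without the first (-0.68) or second (-0.68) D6 library or the first (-0.79) or second (-0.73) 14.5 dpp testis. The calls of Gapdh and Gapdhs were also lost with no filter on low values, with all 10 groups in 1 fit and with the replicate block, and that of Gapdhs with a pseudocount of 0.1. At D16, 4 members were higher (Gapdh by 1.95, with Pgk1, Pgam1 and Ldhb) and 3 lower (Ldhc, Pgk2 and Pgam2) of 8, against 25.3% and 18.3%. At D22, 4 were higher and 4 lower of 9, against 42.1% and 22.9%, and at D28 again 4 and 4 of 9, against 46.7% and 23.6%. The 4 higher were Ldhb, Pgk1, Gapdh and Pgam1, the 4 lower were Ldhc, Pgk2, Gapdhs and Pgam2, and Ldha was not called. The share higher was close to the background at D22 and D28. Gapdhs and Pgk2 at D6, Ldhc and Pgk2 from D16 to D28, and Gapdhs at D22 and D28 had medians under 0.5 FPKM in culture and passed the filter through the testes alone, so lower was the only direction in which they could be called, and no excess over the background is read from the counts lower.

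The median of all genes was not 0 in these comparisons. It was 0.51 at D22 and 0.64 at D28 against testes of the same age, and with quantile normalization it moved to 0.35 and 0.41. Relative to the median of all genes, the D28 log2 fold changes were 2.60 for Ldhb, 3.30 for Gapdh and 2.31 for Pgam1, with Pgk1 between Pgam1 and Ldhb. On the same relative scale they were -1.32 for Ldha, -9.13 for Ldhc, -9.37 for Pgk2, -7.07 for Gapdhs and -5.45 for Pgam2. At D22 the relative changes were 2.11 for Ldhb, 2.57 for Pgk1, 3.99 for Gapdh, 2.03 for Pgam1, -1.18 for Ldha, -8.43 for Pgk2 and -4.73 for Pgam2. The D22 value of Gapdh rested in part on the 30.5 dpp testis with Gapdh at 0, and the unadjusted 4.50 became 3.54 without it. Between 24.5 and 30.5 dpp the median of all genes was -0.32 (-0.20 with quantile normalization), and relative to it Ldha was at 1.36, Pgk2 at 3.08, Gapdhs at 4.55, Pgam2 at 3.18, Ldhb at -0.95, Gapdh at -1.85 and Pgam1 at -0.96. Between 36.5 and 53.5 dpp it was -0.25 (-0.05), and relative to it Gapdhs was at 1.77, Pgk2 at 1.16, Pgam2 at 0.85 and Pgam1 at -0.38. At these in vivo steps the scaling also moved the split of all called genes, from 34.9% to 46.4% higher between 24.5 and 30.5 dpp and from 40.0% to 84.1% higher between 36.5 and 53.5 dpp. The signs of the members called in these 4 comparisons were the same with both scalings.

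**Figure D4:**
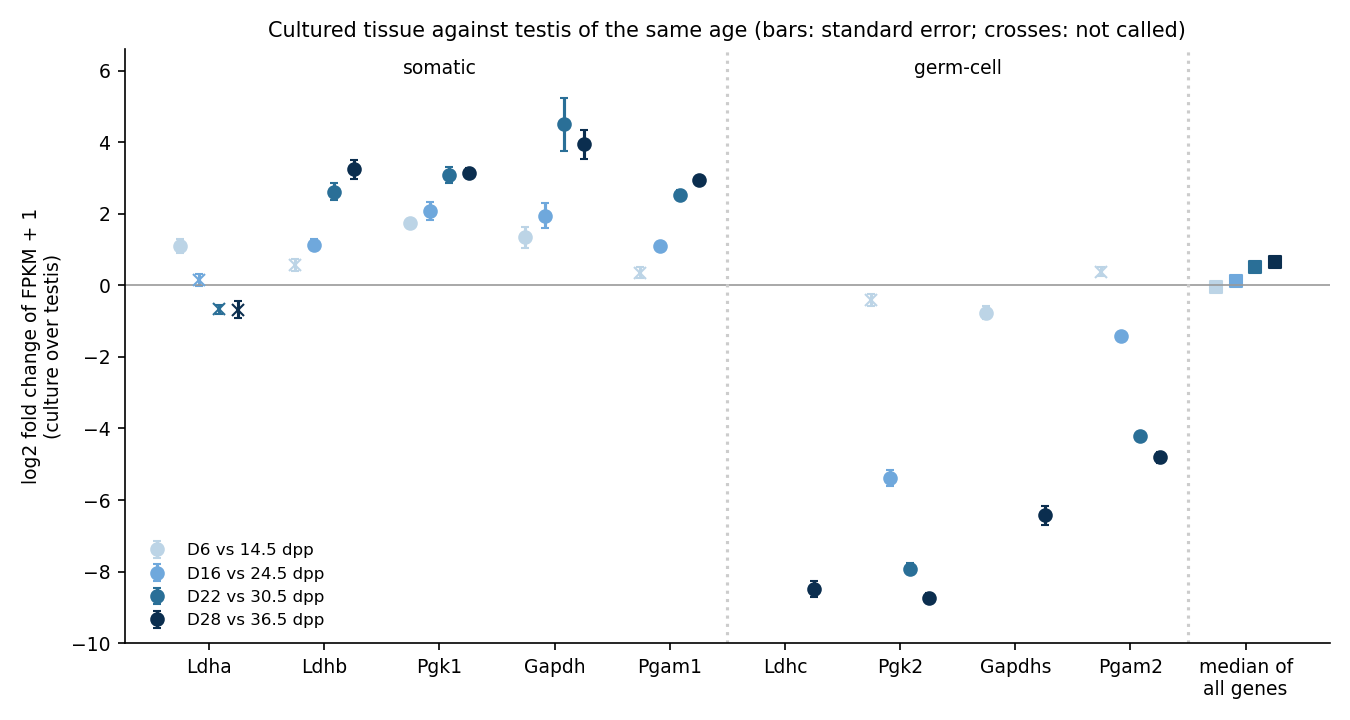
Log2 fold change of FPKM + 1, culture over testis of the same age, for each isozyme at the 4 culture times, with standard errors as bars, crosses for genes not called and squares for the median of all genes. From D16 on Ldhb, Pgk1, Gapdh and Pgam1 lie above 0 and the germ-cell isozymes drawn lie below it, Pgam2 at D16 by the least (-1.42). Not drawn are the untested Ldhc at D6 and Gapdhs at D16, and comparisons with a group wholly listed at 0 (Ldhc at D16 and D22, Gapdhs at D22).

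The gap between culture and testis was also tested directly, as the change from D6 to D28 minus the change from 14.5 to 36.5 dpp. All 9 tested members differed at an adjusted p of at most 0.05, with no threshold on the fold, with 4 higher and 5 lower, against 50.9% and 25.5% of 12482 genes. Ldhc passed the filter through the 36.5 dpp testes alone and could come out lower only, so no excess over the background is read from the count lower. The 4 higher were Ldhb (2.68, SE 0.36, adjusted p = 7.02e-05), Pgk1 (1.40, SE 0.18, adjusted p = 4.14e-05), Gapdh (2.60, SE 0.60, adjusted p = 0.00250) and Pgam1 (2.60, SE 0.16, adjusted p = 1.9e-07). For Ldha the difference was -1.79 (SE 0.35, adjusted p = 0.000884), which put it with the germ-cell isozymes Pgk2 (-8.32), Ldhc (-8.05), Gapdhs (-5.67) and Pgam2 (-5.19). The median of all genes was 0.63 here (0.41 with quantile normalization), and relative to it the differences were 0.77 for Pgk1 and -2.42 for Ldha. These changes share no library between culture and testis.

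Against the younger testis of 14.5 dpp, members were tested with an F test over D16, D22 and D28. At D16, 1 was higher and 1 lower of 8 tested, against 6.56% and 5.35% of 11517 genes. At D22, 2 were higher and 1 lower, against 7.34% and 5.51%, and at D28, 3 were higher and 1 lower, against 7.63% and 6.00%. Gapdh was higher at each time, by 1.74, 2.12 and 1.87 (SE 0.44 each, adjusted p of the F test 0.0176). These Gapdh calls were lost without the first 14.5 dpp testis, with values of 1.67, 2.04 and 1.79, and without the second, with values of 1.82, 2.19 and 1.94. Pgk1 was higher at D22 by 1.62 and at D28 by 1.18 (SE 0.19 each, adjusted p of the F test 0.00140). At D16 its 0.97 was called only with no fold threshold, or without the second (1.08) or the third (1.02) D16 library. Pgam2 was higher at D28 by 0.92 (SE 0.12, adjusted p of the F test 0.00173), a call lost without the second D28 library (0.83). Gapdhs was lower at each time, with log2 fold changes of -0.69, -0.92 and -0.36 (SE 0.12 each, adjusted p of the F test 0.00195), from levels under 1 FPKM in both testes, and the D28 call was lost without the second or the third D28 library (-0.33 each). With all 10 groups in 1 fit the Gapdhs calls at D16, D22 and D28 were all lost (SE 0.34, adjusted p of the F test 0.129). Gapdhs passed the filter here through the 14.5 dpp testes alone and could be called lower only, so nothing is read from the count of 1 lower beside the background. Other members became called when 1 library was left out, among them Ldhb at D22 (1.10) and D28 (1.16) without the first 14.5 dpp testis, Ldha at D28 (1.12) without the second D28 library, and Pgam2 at D16 (0.87) without the first D16 library and at D22 (0.87) without the second or the third D22 library.

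Against the testis from which the explants were cut, the D6 tissues had 0 of 6 tested members called higher and 0 lower by limma, against 9.89% and 6.39% of 11216 genes. By adjusted p alone 4 members passed, Ldhb (0.56), Pgk1 (0.43), Pgam1 (0.47) and Pgam2 (0.83), each higher in culture, with 5319 of all genes. At an unadjusted p under 0.05 the counts were 4 higher and 0 lower, with 6181 of all genes. Pgam2 became called without the first (0.85) or second (0.86) D6 library. Between D6 and D28, 0 of 6 were called higher and 0 lower by limma, against 2.51% and 2.19% of 11211 genes. Here 2 members passed by adjusted p alone, Pgk1 (-0.55, adjusted p = 0.0375) and Pgam2 (0.54, adjusted p = 0.0386), with 1452 of all genes. At an unadjusted p under 0.05 the counts were 2 higher and 1 lower, with 3292 of all genes. Pgam2, the germ-cell isozyme tested in all of these comparisons, thus differed by 0.83 from the starting testis and by 0.54 within culture, compared with -4.81 between D28 and 36.5 dpp.

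Pdha1 and Pdha2, an X-linked gene and its autosomal germ-cell copy, encode the catalytic subunit of pyruvate dehydrogenase, which acts on pyruvate inside the mitochondrion. The mean of Pdha1 was 21.4 FPKM at 8.5 dpp, 24.8 FPKM at 14.5 dpp, 11.5 FPKM at 24.5 dpp and 2.09 FPKM at 53.5 dpp, and between 23.7 and 30.5 FPKM in the cultured groups. That of Pdha2 was 3.48 FPKM at 8.5 dpp, 11.9 FPKM at 14.5 dpp, 118 FPKM at both 24.5 and 30.5 dpp and 81.4 FPKM at 53.5 dpp, and between 6.06 and 7.48 FPKM in culture. Pdha2 was above 3 FPKM in every library. Pdha2 rose between 8.5 and 14.5 dpp by 1.50 (SE 0.15, adjusted p = 8.41e-06), when the log2 fold change of Pdha1 was 0.20 and was not called, and to 24.5 dpp by 3.22 (SE 0.15, adjusted p = 6.22e-10), when Pdha1 fell by 1.06 (SE 0.14, adjusted p = 1.59e-05). At D28 Pdha1 was higher than at 36.5 dpp by 2.43 (SE 0.15, adjusted p = 3.65e-06) and Pdha2 was lower, at -3.49 (SE 0.11, adjusted p = 1.14e-07). At D6 neither was called against 14.5 dpp (0.11 and -0.85), though Pdha2 was called without the first 14.5 dpp testis (-1.07).

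Of 43 other genes of glucose uptake, glycolysis and lactate handling, 40 had values above 0, and Tpi1, Eno2 and Pfkfb4 were listed at 0 in all libraries. Between 14.5 and 24.5 dpp 9 were called higher and 6 lower of 36 tested (median 0.03), against 14.2% and 21.4% of all genes, and between 24.5 and 30.5 dpp 11 higher and 7 lower (median -0.21), against 13.1% and 24.5%. The largest rises were those of Ldhal6b (6.59), Pdha2 (3.22) and Emb (2.51), a chaperone of lactate transporters, at the first step. At the second they were those of Slc16a7 (4.94), a monocarboxylate transporter, Hk1 (2.49), the hexokinase that commits glucose, and Pdk2 (2.24), a kinase that inactivates pyruvate dehydrogenase. Those that fell most were Aldoa (-1.46), an aldolase, Gpi (-1.23), glucose-6-phosphate isomerase, and Pdha1 (-1.06) at the first step, the Gpi call being lost without the second 14.5 dpp testis (-1.08). Of the genes called lower at the second step, Slc16a1 (-1.16), Pdk3 (-1.14) and Pfkl (-0.95), a phosphofructokinase, fell most. The Pdk3 call was lost with quantile normalization (-0.94), and Pdha1 (-0.97) was not called there. Between 8.5 and 14.5 dpp 5 were higher and 1 lower, against 8.37% and 6.32% of all genes, led by Pdha2 (1.50), Slc16a1 (1.27) and Aldoc (1.14), with Pfkp lower (-1.35). At the last 2 steps 2 were higher and 0 lower each, against 6.08% and 1.40% of all genes at the first and 2.62% and 3.93% at the second. They were Slc16a7 (1.58) and Pkm (0.94) between 30.5 and 36.5 dpp and Gpi (0.96) and Pkm (0.89) between 36.5 and 53.5 dpp. The level of Pkm was at most 4.74 FPKM in any library. At an unadjusted p under 0.05 limma gave 6 higher and 6 lower at the first of these steps and 6 and 7 at the second. Of all 12531 genes, 5695 and 6056 passed that threshold in either direction. The last calls of Gpi (0.80) and Pkm (0.70) were lost without the third 36.5 dpp testis, and that of Pkm also without the second (0.78) and with a pseudocount of 0.1.

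In culture, 6 of 32 tested pathway genes were higher and 0 lower at D6 than at 14.5 dpp (median 0.16, with 2 lower at an unadjusted p under 0.05 by limma), 10 and 7 of 31 at D16 (median 0.31), 15 and 13 of 33 at D22 (median 0.50) and 16 and 14 of 34 at D28 (median 0.21). Of all genes 5.57% and 2.37% were higher and lower at D6, 25.3% and 18.3% at D16, 42.1% and 22.9% at D22 and 46.7% and 23.6% at D28, so the shares higher at D22 and D28 were near the background. At an unadjusted p under 0.05, 3839 of 11309 genes passed at D6 in either direction. The median of all genes was -0.04, 0.12, 0.51 and 0.64 in these comparisons. At D28 those higher were led by Gpi (2.53), Pfkl (2.51) and Pdha1 (2.43), and those lower by Ldhal6b (-8.12), Slc16a7 (-6.01) and Slc2a8 (-4.19), a glucose transporter of the testis. At D22 they were Pfkl (2.28), Gpi (2.26) and Pfkfb3 (2.23), and Ldhal6b (-8.35), Slc16a7 (-4.19) and Slc2a8 (-4.04). At D16 they were Aldoa (1.88), Pdk1 (1.53) and Slc2a5 (1.35), and Ldhal6b (-7.01), Pdha2 (-4.01) and Slc2a8 (-2.37). At D6 those higher were led by the widely expressed glucose transporter Slc2a1 (1.43), the lactate exporter Slc16a3 (1.42) and Pdk1 (1.09).

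Glucose uptake, its first phosphorylation and lactate transport stood as follows in single libraries. Slc2a1 was at 37.2, 39.7 and 36.9 FPKM at D6 and 59.5, 34.5 and 38.9 FPKM at D28, compared with 15.6, 14.5 and 10.9 FPKM at 8.5 dpp and 9.64, 6.91 and 7.72 FPKM at 36.5 dpp. Hk1 was at 53.2, 61 and 54.5 FPKM at 8.5 dpp, 382, 307 and 301 FPKM at 36.5 dpp and 703, 575 and 597 FPKM at 53.5 dpp, compared with 28.6, 26.8 and 32.6 FPKM at D28. Slc16a7 was at 141, 120 and 120 FPKM at 36.5 dpp and at 1.07, 0.808 and 1.08 FPKM at D28. Slc2a1 was thus higher in every cultured library than in any testis, and Hk1 and Slc16a7 were higher in every testis of 30.5 dpp or older than in any other library.

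**Figure D5:**
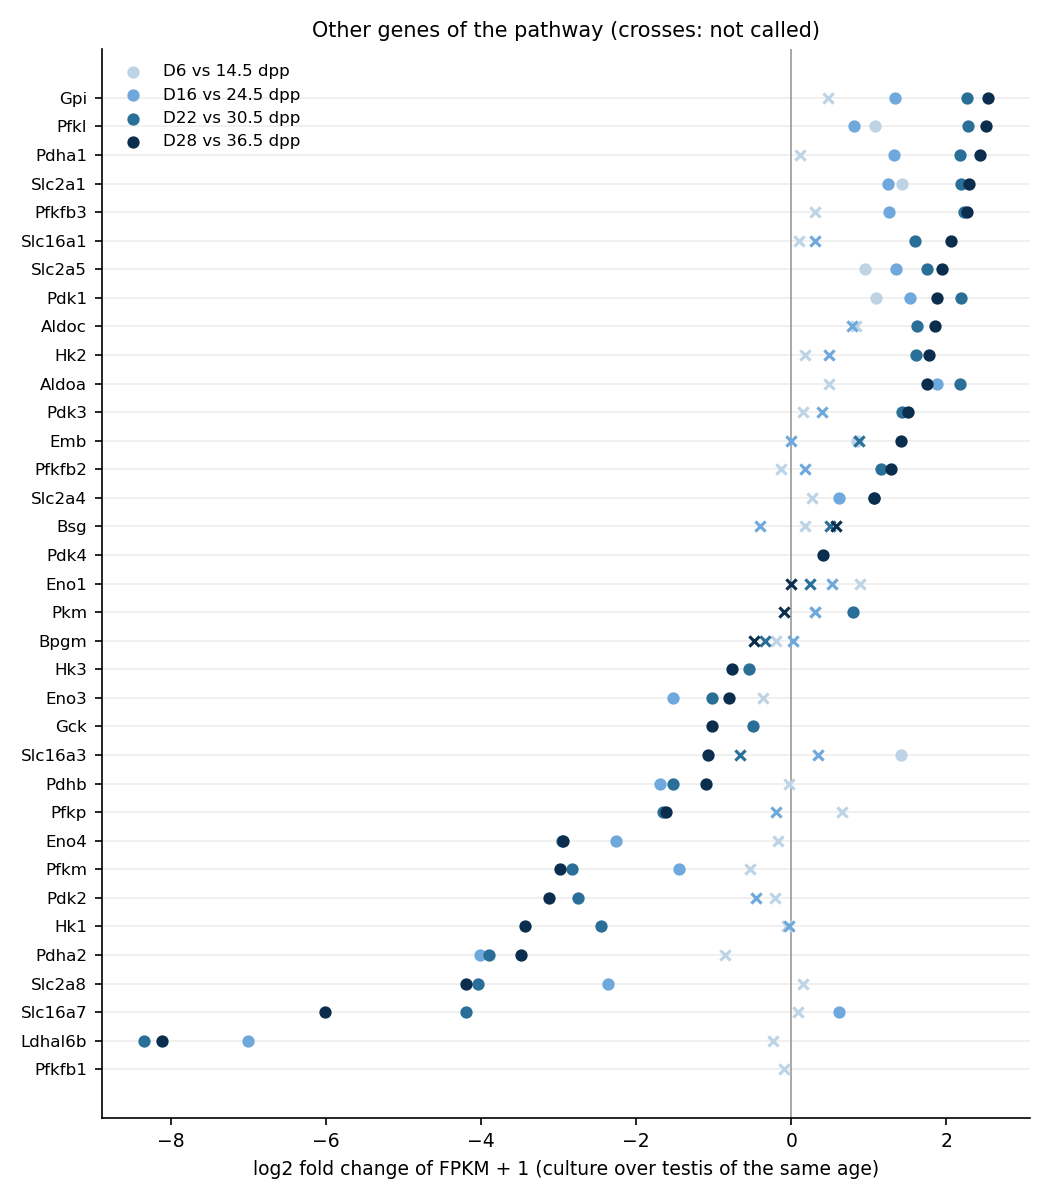
Log2 fold change of the other pathway genes in cultured tissue against testis of the same age, with crosses for genes not called. At D28 the genes spread from Ldhal6b at -8.12 to Gpi at 2.53.

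Cultured tissue was also compared with younger testes. Against 14.5 dpp 5, 7 and 6 of 33 pathway genes were higher at D16, D22 and D28, against 6.56%, 7.34% and 7.63% of all genes, and 0, 0 and 1 lower, against 5.35%, 5.51% and 6.00%, with Emb (2.52, 2.66 and 2.89), Slc16a3 (1.67, 2.09 and 2.04) and Slc2a1 (1.31, 1.64 and 1.61) the largest at each time. At an unadjusted p under 0.05 limma gave 7, 4 and 6 lower, and 5118, 5369 and 5713 of 11517 genes passed in either direction. The D16 call of Slc2a1 was lost without the first 14.5 dpp testis. The 1 lower at D28, Eno3 (-0.65), an enolase of muscle, was lost without the second (-0.62) or the third (-0.52) D28 library or the first (-0.72) or second (-0.58) 14.5 dpp testis, and with all 10 groups in 1 fit. Against 8.5 dpp the D6 tissues had 9 of 31 higher and 2 lower, against 9.89% and 6.39% of all genes, led by Aldoc (1.97), Slc16a3 (1.57) and Slc2a1 (1.42). Within culture, between D6 and D28, 1 of 32 was higher, Emb (2.03, SE 0.14, adjusted p = 0.00128), and 0 lower, with 5 and 6 at an unadjusted p under 0.05 by limma. Of all genes 2.51% were called higher and 2.19% lower, and 3292 of 11211 passed the unadjusted threshold, so the count higher was near the background. The difference between the change from D6 to D28 and that from 14.5 to 36.5 dpp was higher for 16 and lower for 14 of 35, against 50.9% and 25.5% of all genes, so the share higher was near the background.

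Several glycolytic genes respond to low oxygen, and explants lack a blood supply, so oxygen-responsive genes outside glycolysis were listed beside the members. Of 9 found, 5 were higher and 0 lower at D6 than at 14.5 dpp (median 0.97), 6 and 2 at D16, 7 and 1 at D22 (median 2.54) and 7 and 0 at D28 (median 2.47), each against the testis of the same age. Of all genes 5.57%, 25.3%, 42.1% and 46.7% were higher and 2.37%, 18.3%, 22.9% and 23.6% lower in these comparisons. At D6, 4 were higher and 1 lower than at 8.5 dpp, against 9.89% and 6.39% of all genes. Those higher were led by Vegfa (2.81) and Adm (2.71), and the 1 lower was Car9 (-0.44, adjusted p = 0.0202), a carbonic anhydrase, a call lost in 4 of the 6 fits that left out 1 library. Vegfa, an angiogenic growth factor, was at 33.8, 92.7 and 61.5 FPKM at D6 and 149, 50.7 and 87.1 FPKM at D28, compared with 7.8, 7.26 and 7.12 FPKM at 8.5 dpp and 2.83, 2.4 and 2.17 FPKM at 36.5 dpp. Adm, which encodes adrenomedullin, was at 18.1, 19.4 and 17.9 FPKM at D6 and 45.7, 28.3 and 22.7 FPKM at D28, compared with 1.73, 2.13 and 2.06 FPKM at 8.5 dpp. Both were higher in every cultured library than in every testis. At D28 Vegfa was higher than at 36.5 dpp by 4.67 (SE 0.35, adjusted p = 8.71e-06) and Adm by 4.36 (SE 0.24, adjusted p = 1.84e-06). At D6 they were higher than at 14.5 dpp by 2.90 and 3.24, the call of Vegfa being lost without the third D6 library (2.85) or the first 14.5 dpp testis (2.31). Between D6 and D28 none of the 9 was called by limma, against 2.51% of all genes higher and 2.19% lower. At an unadjusted p under 0.05, 2 were higher and 0 lower, with 3292 of 11211 genes. The counts of 0 lower at D6 and D28 against the same age were 0 and 1 at that threshold, which 3839 of 11309 and 10600 of 12210 genes passed in either direction. Kdm3a (-1.24 at D16 and -1.12 at D22) and Ankrd37 (-1.48 at D16) were lower than at the same age, the call of Ankrd37 being lost without the first D16 library (-1.31) or the first 24.5 dpp testis (-1.30). The part of oxygen in the levels of the isozymes was not tested.

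The genes with the pattern most like each member were taken from 12685 genes by Pearson correlation over the 29 libraries, which share 10 groups and are therefore not independent. For Pgk2 they were Ttc39d, Mospd4 and C2h4orf17 (r = 0.999 each). For Ldhc they were Fabp9 (r = 0.998), a fatty acid-binding protein of the testis, Ldhal6b (r = 0.997) and Ybx2 (r = 0.997), which binds stored germ-cell messages. For Gapdhs they were Iqcf5, Rnf133 and Dnajb8 (r = 0.996 each), and for Pgam2 Plekha5 (r = 0.991), Mtx1 (r = 0.991) and Smokl3 (r = 0.990). Among the somatic isozymes, Pgam1 was most like Rab7a (r = 0.997), a small GTPase of late endosomes, Ldhb most like Nectin2 (r = 0.980), an adhesion molecule, Pgk1 most like Adamts1 (r = 0.981), an extracellular protease, and Gapdh most like Gas6 (r = 0.950). Ldha stood apart, with its best match at r = 0.900 (Ntmt1).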

How the data were processed

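RNA of 17 testes and 12 pools of cultured explants was measured by stranded, poly(A)-selected sequencing with single reads. Per the submitters' notes and the study's methods, the authors aligned reads to rn6 with STAR 2.5.2a and quantified RefSeq genes with StringTie and Ballgown. The deposited values are FPKM, which the paper's methods call RPKM, normalized for transcript length and mapped reads. Genes are listed by Entrez Gene identifier, and 17172 of 17322 were found in the RefSeq gene table of GRCr8. That table was used for names, copies matched by name and neighbours, and promoters are from RefSeq for the same assembly. One 14.5 dpp library was left out, because it lists 0 for all genes. The members and lists were chosen with earlier results of these data known.

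FPKM were transformed to log2(FPKM + 1), and genes whose median reached 0.5 FPKM in 1 or more fitted groups were tested with limma 3.58.1 in R 4.3.3, with Benjamini-Hochberg adjustment over all genes tested. The 6 ages entered 1 fit, each culture time was fitted with its age-matched testis, D6 was fitted with 8.5 dpp and D28 with D6, D16, D22 and D28 were fitted with 14.5 dpp under an F test, and the difference of changes used 4 groups. A call needed an adjusted p of at most 0.05 and a ratio of medians of at least 2, except that the difference of changes used the adjusted p alone. Figures were drawn with matplotlib 3.10.9 and tables written with pandas 2.3.3 and numpy 2.4.6 under Python 3.11.15. The scripts for each limma comparison, the likeness search and the motif search were tried on made-up tables with known answers. Read counts were not used, so depth is unknown and no counting interval is given. In vivo replicates are different rats. Cultured replicates are pools, and the study's methods give at least 3 males per pool and 9 animals per culture time.

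Members were always named, with Pdha1 and Pdha2. Of the other pathway genes the 3 called genes with the largest log2 fold change in each direction were named, of the oxygen-responsive genes the 2 largest, and for each member the 3 genes of highest correlation. Pathway genes shown by library and motifs were chosen after their values were seen. Alternatives changed the pseudocount, the filter, the groups fitted, the prior variance, the scaling, the fold threshold, the F test and a replicate block. Others summed copies matched by name with the gene they are named after, and left out each library in turn.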

Additional observations from a re-analysis of the deposited data

Results flagged for a closer look

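Each difference given here is one between culture and testis in the change over the same span of age, the change from D6 to D28 minus that from 14.5 to 36.5 dpp, tested in limma as 1 term over 11 libraries. It was past an adjusted p of 0.05 for all 9 tested members and for both pyruvate dehydrogenase genes. The same threshold was passed by 9544 of all 12482 genes tested, 50.9% of them being higher and 25.5% lower out of all tested. No excess over the background is read from the count of members. Ldhc passed the filter through the 36.5 dpp testes alone, so lower was the only direction open to it. Values are on the log2(FPKM + 1) scale.

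Among the somatic isozymes the difference was 2.68 for Ldhb, 2.60 for Gapdh, 2.60 for Pgam1 and 1.40 for Pgk1. Their levels were lower at 36.5 than at 14.5 dpp and were not called between D6 and D28. Ldha went the other way, at -1.79 (SE 0.35, adjusted p = 0.000884), and it was higher at 36.5 than at 14.5 dpp in every testis. Among the germ-cell isozymes the difference was -8.32 for Pgk2, -8.05 for Ldhc, -5.67 for Gapdhs and -5.19 for Pgam2. For the pyruvate dehydrogenase pair it was 2.33 for the X-linked Pdha1 (SE 0.21, adjusted p = 3.15e-06) and -2.64 for its autosomal copy Pdha2 (SE 0.19, adjusted p = 6.11e-07). The difference of Pgk1 is the one nearest to the median of all genes, 0.63.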

How the results depend on the processing

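Over the alternatives tried, 1639 of 1734 member values kept their direction and their side of the threshold, 33 lost and 46 gained a call and 16 changed sign, and of 1686 values of other named genes 1626 were kept, 41 lost, 15 gained and 4 changed sign. The calls at D16, D22 and D28 against testes of the same age were all kept for the members.

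With quantile normalization the sign changed for Ldhb between 8.5 and 14.5 dpp (0.18), Pgk1 between 36.5 and 53.5 dpp (0.18) and Pdha2 between 24.5 and 30.5 dpp (-0.22), none of which was called. The scaling and Ldhal6b alternatives for the shares were chosen after seeing the data. Quantile normalization gave germ-cell shares of phosphoglycerate kinase of 98.8% at 36.5 dpp and 99% at 53.5 dpp, of lactate dehydrogenase of 0.214% at 14.5 dpp and 77.1% at 53.5 dpp, and of glyceraldehyde-3-phosphate dehydrogenase of 4.86%, 95.6% and 97.1% at 14.5, 36.5 and 53.5 dpp. For phosphoglycerate mutase it gave 1.17% at 14.5 dpp, 10.2% at 24.5 dpp, 89.2% at 53.5 dpp, 1.37% at D6, 1.73% at D16 and 1.69% at D22. With copies matched by name summed, the share of lactate dehydrogenase was 48.8%, 49.3%, 44.2% and 54.6% from 24.5 to 53.5 dpp, Ldhal6b being on the somatic side. That of glyceraldehyde-3-phosphate dehydrogenase was 4.37%, 93.7% and 97.4% at 14.5, 36.5 and 53.5 dpp. With Ldhal6b on the germ-cell side, the share of lactate dehydrogenase was 0.52% at 14.5 dpp, 73.5%, 87.3%, 85.6% and 88% from 24.5 to 53.5 dpp, and 0.113%, 0.0493%, 0.0993% and 0.213% at D6, D16, D22 and D28.

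Without the fold threshold more genes were called by construction. All genes called then numbered 4833, 7521, 8624, 4260 and 4808 for the 5 successive steps in vivo, 1755 at D6 and 8445 at D16 against the same age, 3867 at each time against 14.5 dpp, 5319 for D6 against 8.5 dpp and 1452 for D28 against D6. Members called numbered 4 at each of the last 2 steps in vivo, 6 at D16 and 6 at D22 against 14.5 dpp, 4 for D6 against 8.5 dpp and 2 for D28 against D6. With a pseudocount of 0.1, 4 members were called between 8.5 and 14.5 dpp, Ldhc (1.71) and Pgk2 (1.39) being added. For D6 against 14.5 dpp, 2 members were called with no filter and 2 with all 10 groups in 1 fit. For D16 against 14.5 dpp, 1 was called with a filter at 1 FPKM and 1 with all 10 groups in 1 fit, where the Gapdhs calls at D16, D22 and D28 against 14.5 dpp were lost. With quantile normalization the Ldha call at D6 against 14.5 dpp was lost (1.06), and Pgam2 was called at D16 (0.84) and D22 (0.90) against 14.5 dpp. The cause of these changes was not tested.

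Leaving out 1 library moved the number of genes called to between 1200 and 2418 for 14.5 against 8.5 dpp, 406 and 944 for D6 against 14.5 dpp and 298 and 592 for D28 against D6. Members called ranged from 1 to 3 at D6 and 1 to 3 at D16 against 14.5 dpp, and from 0 to 1 for D6 against 8.5 dpp. Values that changed sign, none of them called, ranged for Ldhb from -0.26 to 0.25 and for Pgam1 from -0.02 to 0.27 (14.5 against 8.5 dpp), for Gapdh from -0.54 to 0.08 (24.5 against 14.5 dpp), for Pdha2 from -0.13 to 0.09 (30.5 against 24.5 dpp) and for Gapdh from -0.64 to 0.82 (36.5 against 30.5 dpp). Between 36.5 and 53.5 dpp Ldha ranged from -0.11 to 0.02, Ldhb from -0.46 to 0.07 and Gapdh from -0.01 to 0.38. In culture Ldha ranged from -0.05 to 0.27 (D16 against 24.5 dpp) and from -0.49 to 0.00 (D28 against D6), Pdha1 from -0.21 to 0.04 (D28 against 14.5 dpp) and Gapdh from -0.44 to 0.26 (D6 against 8.5 dpp). Where 1 library of 14.5 dpp was left, it was assumed to vary like the other groups.

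Replicate numbers of the labels were tried as a replicate block. Deviations of same-numbered libraries of 2 groups had a median correlation of 0.017 over 126 pairs, 11 of them over 0.1. Those of differently numbered libraries had a median of -0.009 over 252 pairs, 11 of them over 0.1. Deviations within a group sum to 0, so these medians cannot show whether some libraries share a batch. With the replicate block 121 of 124 member values were kept and 3 calls at D6 against 14.5 dpp were lost (Ldha 0.95, Gapdh 1.40 and Gapdhs -0.92), leaving 1 member and 376 genes called there.

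The main limits are these. The 14.5 dpp group has 2 testes, whose early spermatocyte markers differ. Values are FPKM without counts, so the precision of low values is unknown, and genes at 0 cannot be told apart from genes that were not quantified. Reads of Gapdh and the other somatic isozymes can be shared with copies. The cultured libraries are pools without the tissue centre. Transcript levels say nothing of protein or flux.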

Other observations

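Markers of other cells were summed as well. Peritubular markers (4 of 4) summed to 645 to 693 FPKM at 8.5 dpp, 31.2 to 38 FPKM at 53.5 dpp and 68.2 to 334 FPKM in culture. Markers of all germ cells (2 of 2) summed to 24.6 to 25.6 FPKM at 8.5 dpp and 301 to 450 FPKM at 24.5 dpp. They summed to 135 to 167 FPKM at 36.5 dpp, 84.8 to 100 FPKM at 53.5 dpp and 43.6 to 112 FPKM in culture. Macrophage markers (4 of 4) summed to 2.7 to 8.39 FPKM in the testes and 9.04 to 17.3 FPKM in culture, where Cd68 was the most abundant and Cd163 was listed at 0. Erythroid markers (2 of 3 found) summed to 14.5 to 699 FPKM in the testes and 1.16 to 8.49 FPKM in culture.

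Pkm, which encodes the pyruvate kinase of most tissues, was at 4.58, 4.74 and 3.79 FPKM at 53.5 dpp and at most 1.93 FPKM in culture. The other pyruvate kinase gene listed, Pklr, was at most 0.557 FPKM in any library. Both genes of this step were thus low throughout, and whether these values are failed estimates was not tested.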
